A study of Mus musculus with 6 samples.

Results

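The genes described here are those whose symbols mark them as cytosolic ribosomal proteins (Rpl and Rps) or as translation initiation and elongation factors (Eif and Eef). They were chosen by symbol alone, from probe sets that the platform annotation gives to 1 gene, and Rps6k kinase genes were left out. The rule found 106 of the 8511 genes so named, with 237 of 18364 probe sets: 34 large subunit genes, 21 small subunit genes and 51 factor genes. The rule takes every matching symbol, so it also holds the pseudogene Rpl32-ps, tissue paralogs such as Rpl39l and Eef1a2, the eIF2 alpha kinases and the methyltransferase Eef1akmt1.

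RNA came from CD4+CD8+ double-positive thymocytes, the stage at which most developing alpha-beta T cells reside, sorted by flow cytometry from pooled thymi of at least 2 mice. The Sox13 transgenic samples came from C57BL/6 mice carrying a transgene for Sox13, a transcription factor of the SOX family, and the wild-type samples from littermates without it. All mice were 6-week-old females. The promoter that drives the transgene is not given in the sources used here. Experiment 1 was run on Affymetrix Mu11K, a pair of arrays (A and B) with no probe set in common, and experiment 2 on U74A, with 1 transgenic and 1 wild-type array of each type, so 6 arrays in all. Sox13 itself had scaled intensities of 5951 in transgenic cells and 27.4 in wild-type cells in experiment 1, and of 3832 in transgenic cells and 599.6 in wild-type cells in experiment 2.

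The cytosolic ribosome is built from a large and a small subunit, each a shell of ribosomal proteins on ribosomal RNA, and its protein genes are among the most strongly transcribed in growing cells. Initiation factors bring the initiator tRNA, the small subunit and the capped mRNA together, and elongation factors then carry aminoacyl-tRNA in and move the ribosome along the message. Messages of ribosomal proteins and of several elongation factors begin with a run of pyrimidines, the 5′ TOP motif, through which mTOR signaling sets their translation. In mice, loss of the large subunit protein Rpl22 arrests alpha-beta T cell development, so single ribosomal proteins can matter in this lineage.

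The start regions of 12 members are shown so that the pyrimidine runs of bright ribosomal protein and elongation factor genes can be read beside the starts of factors whose ratios are described below, some of which have no such run. RefSeq promoters (GRCm38.p6) were matched for 84 of the 106 members. Each line gives 30 bases before and 30 bases from the annotated start on the coding strand, with the longest pyrimidine run of the printed bases (the first, where several tie) in capitals.
Rplp2, chr7:141447621-141447680, plus strand: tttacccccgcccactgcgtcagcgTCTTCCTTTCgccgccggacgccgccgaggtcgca
Rps18, chr17:33955636-33955695, minus strand: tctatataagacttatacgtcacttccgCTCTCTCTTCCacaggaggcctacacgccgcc
Rpl28, chr7:4792935-4792994, plus strand: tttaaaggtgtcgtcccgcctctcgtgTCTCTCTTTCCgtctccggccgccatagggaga
Rpsa, chr9:120127736-120127795, plus strand: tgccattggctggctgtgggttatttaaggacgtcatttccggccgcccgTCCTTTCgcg
Eef2, chr10:81176601-81176660, plus strand: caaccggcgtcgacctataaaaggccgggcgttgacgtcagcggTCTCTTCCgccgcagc
Eef1a1, chr9:78481695-78481754, minus strand: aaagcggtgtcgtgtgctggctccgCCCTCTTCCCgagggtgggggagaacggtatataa
Eif5, chr12:111538071-111538130, plus strand: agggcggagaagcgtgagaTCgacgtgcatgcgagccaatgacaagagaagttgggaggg
Eif3a, chr19:60790664-60790723, minus strand: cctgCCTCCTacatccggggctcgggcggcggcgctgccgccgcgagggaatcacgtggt
Eif4a2, chr16:23107438-23107497, plus strand: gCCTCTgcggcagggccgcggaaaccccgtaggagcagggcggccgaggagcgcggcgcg
Eif2a, chr3:58525791-58525850, plus strand: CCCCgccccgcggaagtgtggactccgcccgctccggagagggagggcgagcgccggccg
Eif2b5, chr16:20498787-20498846, plus strand: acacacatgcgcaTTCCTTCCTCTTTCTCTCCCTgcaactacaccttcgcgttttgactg
Eif2b2, chr12:85219451-85219510, plus strand: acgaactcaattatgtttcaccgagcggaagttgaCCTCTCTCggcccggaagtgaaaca

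Within 20 bases on either side of the start, a run of at least 6 pyrimidines was found in 62.5% of 32 large subunit promoters, 57.1% of 21 small subunit promoters and 33.9% of 56 factor promoters, against 37.5% of all 32851 promoters in the table. The letters CTTTC or CTTCC on the coding strand in the same window were found in 50% of large subunit, 38.1% of small subunit and 21.4% of factor promoters, against 13.7% of all promoters. The letters CCGGAAG, the core of an ETS factor site, were searched on both strands over all 300 bases of each promoter. They were found in 28.1% of large subunit, 33.3% of small subunit and 30.4% of factor promoters, against 8.86% of all promoters. The letters AAGATGG, the core of a YY1 site, were found in the same way in 21.9% of large subunit, 19.0% of small subunit and 10.7% of factor promoters, against 6.34% of all promoters. Of the printed members, the factor Eif2b5 had the longest run, 21 pyrimidines, Rps18 and Rpl28 each had one of 11, and the factors Eif5 and Eif2a had longest runs of 2 and 4, so run length did not separate the printed factors from the printed ribosomal proteins. These matches are descriptions of the letters and say nothing of binding.

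Levels are given as scaled intensities: every array was set to a 2% trimmed mean of 500, and values under 100 were set to 100, the floor. A ratio is the log2 of Sox13 transgenic over wild type within 1 experiment, averaged over the gene's probe sets, so 1 stands for 2-fold, and a gene's level is the geometric mean over those sets. Brightness differs between probe sets for reasons other than transcript number, so levels were compared only between genotypes on the same array type. Each experiment has 1 array per genotype and array type and so no test of its own. The test over both experiments has n = 2 ratios per gene. An SE printed after a mean is the moderated SE of that test (limma). It rests mostly on a variance shared over all genes, not on the gene's own 2 ratios. In experiment 1, 75 of the 88 members on the arrays were above the floor in at least 1 genotype, and in experiment 2, 66 of 84. Of the 106, 93 were above the floor in either experiment (27 in experiment 1 alone and 18 in experiment 2 alone), and 13 were at the floor in both genotypes wherever they were measured, among them Eif4e, the cap-binding protein itself. Fewer cells of a type and less RNA per cell cannot be told apart in such bulk samples.

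None of the 48 members measured above the floor in both experiments passed the test. Limma with Benjamini-Hochberg adjustment over 3237 genes called 0 of 48 higher and 0 of 48 lower at an adjusted p under 0.05, where 0.154% of all genes tested were called higher and 0% lower. At an unadjusted limma p under 0.05, 1 member (Eif5) was lower and 0 were higher, where 3.92% of all genes were lower and 2.5% higher. Without adjustment or test, 25 of the 48 were higher in transgenic cells in both experiments and 7 were lower in both, where 23.9% of all genes were higher in both and 30.4% lower in both. Large subunit genes were higher in both experiments in 8 of 11 cases and lower in both in 0, small subunit genes in 5 and 1 of 8, and factor genes in 12 and 6 of 29. With quantile normalization 4 of 11 large subunit genes were higher in both and 1 lower in both, and with loess 5 and 1.

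**Figure D1:**
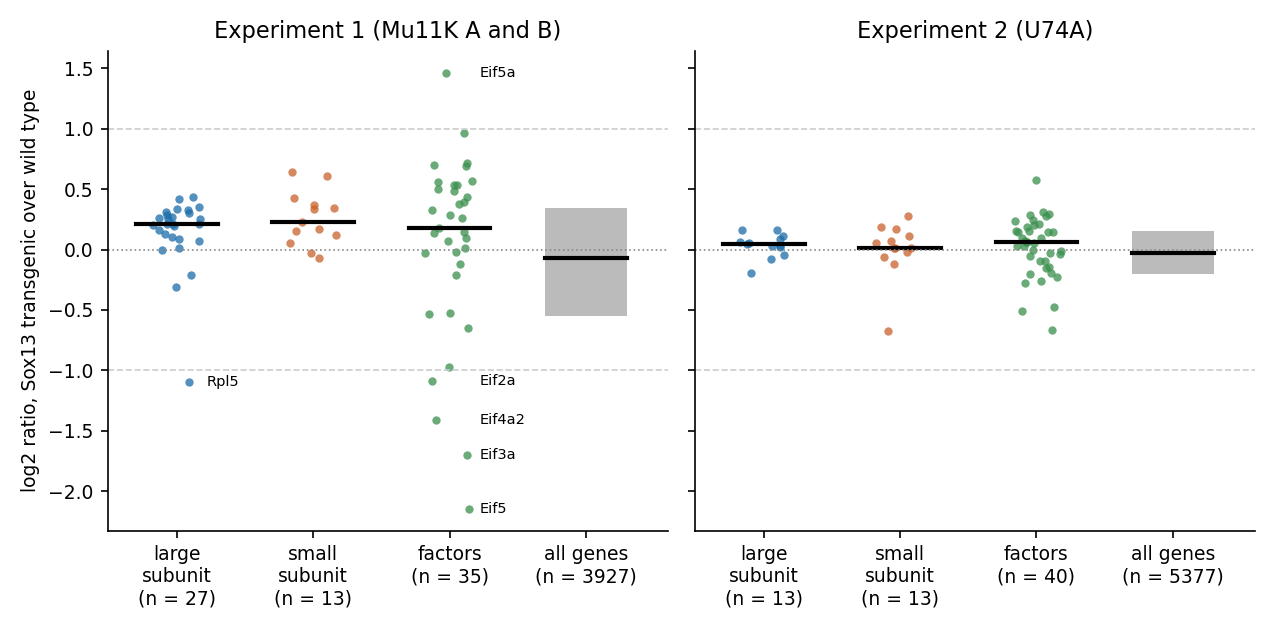
The log2 ratio of Sox13 transgenic over wild type is plotted for each gene above the floor in experiment 1 (left) and experiment 2 (right), by class, beside the median and quartiles of all genes. Most ribosomal protein genes lie just above 0 in experiment 1 (medians 0.21 and 0.23, with 4 of 27 large and 2 of 13 small subunit genes below 0 and Rpl5 at -1.09) and close to 0 in experiment 2 (medians 0.05 and 0.02), while the factors spread from -2.15 to 1.46 in experiment 1.

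In experiment 1, 23 of 27 large subunit genes and 11 of 13 small subunit genes were brighter in transgenic cells, where 45.6% of all genes were. Their median log2 ratios were 0.21 and 0.23, beside -0.07 over all 3927 genes. The interquartile range was 0.20 log2 units for the large subunit genes and 0.89 for all genes, which were not matched for signal. In experiment 2 the same classes had medians of 0.05 (10 of 13 higher) and 0.02 (9 of 13 higher), beside -0.03 over all 5377 genes, of which 45.4% were higher. The ribosomal protein genes therefore lay on the transgenic side of all genes in both experiments, by under 0.1 log2 units in experiment 2. By array type, the large subunit probe sets had medians of 0.21 on Mu11K A, 0.25 on Mu11K B and 0.04 on U74A.

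The ratio in experiment 1 moved with signal, which bears on genes as bright as these. Over all probe sets of experiment 1 above the floor on both arrays, the median log2 ratio was -0.24 for signals of 100 to 300, -0.14 for 300 to 1000, 0.11 for 1000 to 3000, 0.15 for 3000 to 10000 and 0.16 above 10000. The interquartile ranges, in the same order, were 0.88, 0.96, 0.75, 0.54 and 0.34 log2 units, so the spread was narrowest among the brightest sets. The 26 ribosomal protein probe sets above 10000 had a median of 0.26, with 25 of 26 higher. The 95 probe sets of other genes as bright had a median of 0.14, with 69.5% higher. Above 10000 the interquartile range was 0.22 for the ribosomal protein sets and 0.36 for the sets of other genes. For 3000 to 10000 it was 0.16 over 14 ribosomal protein sets, 0.49 over 10 factor sets and 0.56 over the sets of other genes. For 300 to 1000 the order was reversed, with 0.85 over 4 ribosomal protein sets and 0.52 over 10 factor sets. In experiment 2 above 10000, the 17 ribosomal protein probe sets had a median of 0.03, with 13 higher. All 122 probe sets as bright also had a median of 0.03, with 60.7% higher. An intensity-dependent loess within each pair of arrays gave medians of 0.05 for the large subunit and 0.19 for the small subunit in experiment 1, with all genes at 0.00. Quantile normalization gave 0.08 and 0.19, with all genes at 0.06. The large subunit median thus lay within 0.1 log2 units of all genes under both, and what made the ratio move with signal was not tested.

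**Figure D2:**
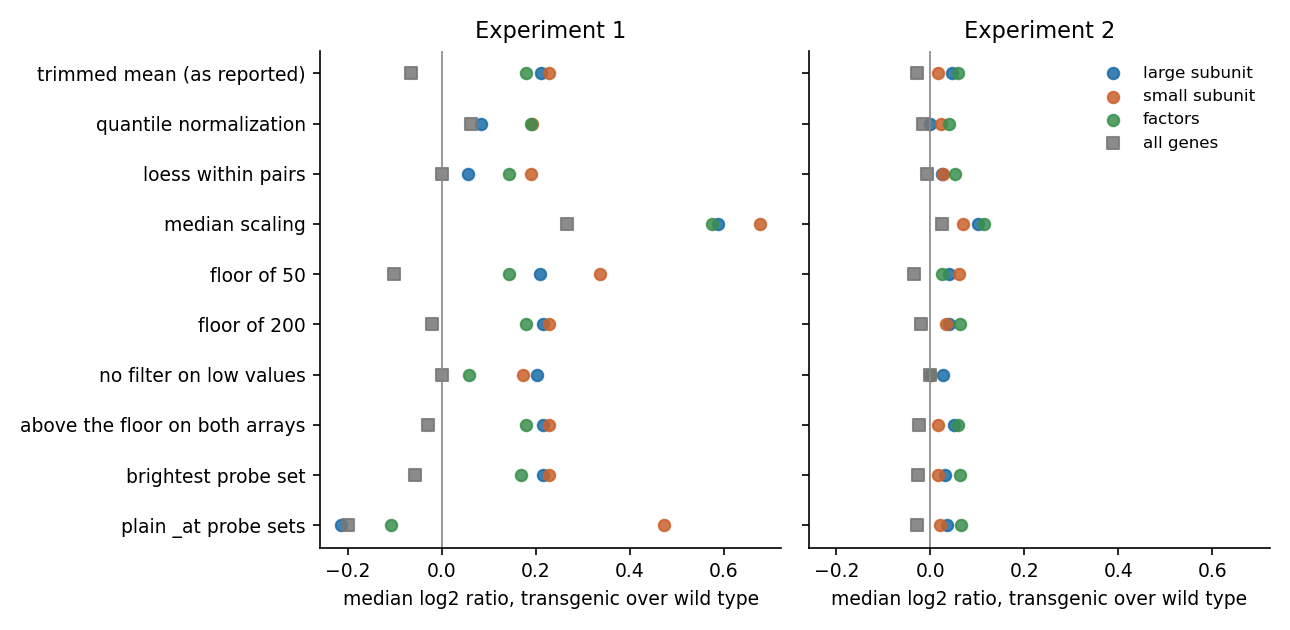
The median log2 ratio of transgenic over wild type is plotted for each class and for all genes, for each way of processing the arrays, with experiment 1 on the left and experiment 2 on the right. The large subunit median of experiment 1 runs from -0.21, over the 3 genes with plain probe sets, to 0.59 with median scaling, where all genes stand at 0.27. The -0.21 is the value of Rpl32-ps, which was under the floor in transgenic cells.

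Probe set design limits how far single ribosomal proteins can be read. On the Mu11K arrays, 67.5% of the large subunit probe sets and 60% of the small subunit probe sets carry the manufacturer's code for sets that match several members of a gene family, against 7.9% of all named probe sets. On U74A the shares were 9.09% and 3.7%, against 7.93% of all. Only 3 large subunit genes, 1 small subunit gene and 6 factor genes above the floor in experiment 1 had a probe set with no such code of any kind. Their medians were -0.21 (large subunit), 0.47 (small subunit) and -0.11 (factors), beside -0.20 over all genes. The large subunit sets were those of the pseudogene Rpl32-ps (-0.21) and Rpl7 (-0.71), both under the floor in transgenic cells, and Rpl10 (0.34), above it in both genotypes. The small subunit set, of Rps27l, was under the floor in wild-type cells. A further 24 ribosomal protein probe sets of experiment 1 and 39 of experiment 2 are annotated to several genes and belong to no member. The 23 of these above the floor in experiment 1 had a median of 0.17 (17 higher), and the 34 in experiment 2 had 0.11 (26 higher).

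Among large subunit genes, the stalk that recruits translation factors to the ribosome is represented by Rplp0 and Rplp2. Rplp2 stood at 13090 in transgenic and 9792 in wild-type cells in experiment 1, with its 2 probe sets at log2 ratios of 0.41 and 0.43, and had no probe set analysed in experiment 2. Rplp0 stood at 22379 in transgenic and 17815 in wild-type cells in experiment 1, and at 30795 in transgenic and 29817 in wild-type cells in experiment 2. Its log2 ratios were 0.33 (0.08 on Mu11K A, and 0.45 and 0.46 on Mu11K B) and 0.05. Both stalk genes were thus brighter in the transgenic sample wherever they were above the floor, by up to 1.34-fold.

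Rpl22, the large subunit protein with the T cell role named above, stood at 7174 in transgenic and 6200 in wild-type cells in experiment 1, and at 209.3 in transgenic and 196.8 in wild-type cells in experiment 2. Its mean log2 ratio was 0.15 ± 0.34 (moderated SE, n = 2), and its 2 probe sets of experiment 2 differed in sign. The 5S RNA-binding protein Rpl5, which with its partner also restrains the p53 regulator Mdm2, was the 1 ribosomal protein that differed by 2-fold. Rpl5 stood at 524.2 in transgenic and 1119 in wild-type cells in experiment 1, a log2 ratio of -1.09 from a single family-coded probe set, with none analysed in experiment 2. Rpl7 stood at 779.7 in transgenic and 965.0 in wild-type cells in experiment 1 as a mean of 2 probe sets that differed in sign. Of these, the bright set stood at 6079 in transgenic and 5688 in wild-type cells, and the dim one was under the floor in transgenic cells against 163.7 in wild-type cells. The mean of Rpl7 over both experiments was -0.13, and 0.076 with the bright set alone.

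The other large subunit genes lay close together. Rpl6 had the highest mean of those measured in both experiments, with 17144 in transgenic and 13843 in wild-type cells in experiment 1, and 19287 in transgenic and 17265 in wild-type cells in experiment 2. The log2 ratios of Rpl13a, Rpl7a, Rpl37a, Rpl8 and Rpl10a were all above 0 in both experiments, with the highest at 0.35 (Rpl13a, experiment 1); the mean of Rpl10a was below 0 with quantile and loess scaling. Rpl41, a very short basic protein of the intersubunit bridge, stood at 22898 in transgenic and 20912 in wild-type cells in experiment 1, and at 40627 in transgenic and 46387 in wild-type cells in experiment 2, so its direction differed between experiments. Rpl19 also differed in direction, with log2 ratios of 0.28 and -0.05. The bright genes measured in experiment 1 alone, Rpl28 and Rpl27a, had log2 ratios of 0.31 and 0.20.

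Among small subunit genes, Rpsa, the small subunit protein also known as the laminin receptor, had the highest mean ratio. Rpsa stood at 4510 in transgenic and 2899 in wild-type cells in experiment 1, as the mean of 3 probe sets with log2 ratios between 0.36 and 0.92. In experiment 2 it stood at 6498 in transgenic and 5350 in wild-type cells, a log2 ratio of 0.28. The mean over both was 0.46 ± 0.34 (moderated SE, n = 2), with a limma adjusted p of 0.872. Rpsa was thus brighter in transgenic cells on each of the 4 probe sets above the floor, by an amount that did not pass the test.

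Rps19, a small subunit protein mutated in Diamond-Blackfan anaemia in humans, stood at 8743 in transgenic and 6511 in wild-type cells in experiment 1, and at 12986 in transgenic and 12026 in wild-type cells in experiment 2. Rps3, which lies at the mRNA entry channel, had log2 ratios of 0.34 and 0.17, and Rps18 and Rps28 had 0.37 and 0.35 in experiment 1 and 0.07 and 0.05 in experiment 2. These 4 genes were brighter in the transgenic sample in both experiments. Rps24 stood at 15355 in transgenic and 16164 in wild-type cells in experiment 1, and at 28644 in transgenic and 29906 in wild-type cells in experiment 2, log2 ratios of -0.07 and -0.06, whose mean was 0.19 with median scaling. Rps4x had log2 ratios of -0.03 and 0.02. Rps29 had 0.05 in experiment 1, where its probe set stood at 14208 in transgenic and 13711 in wild-type cells, and -0.68 in experiment 2, where it stood at 138.2 in transgenic and 221.1 in wild-type cells, close to the floor.

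**Figure D3:**
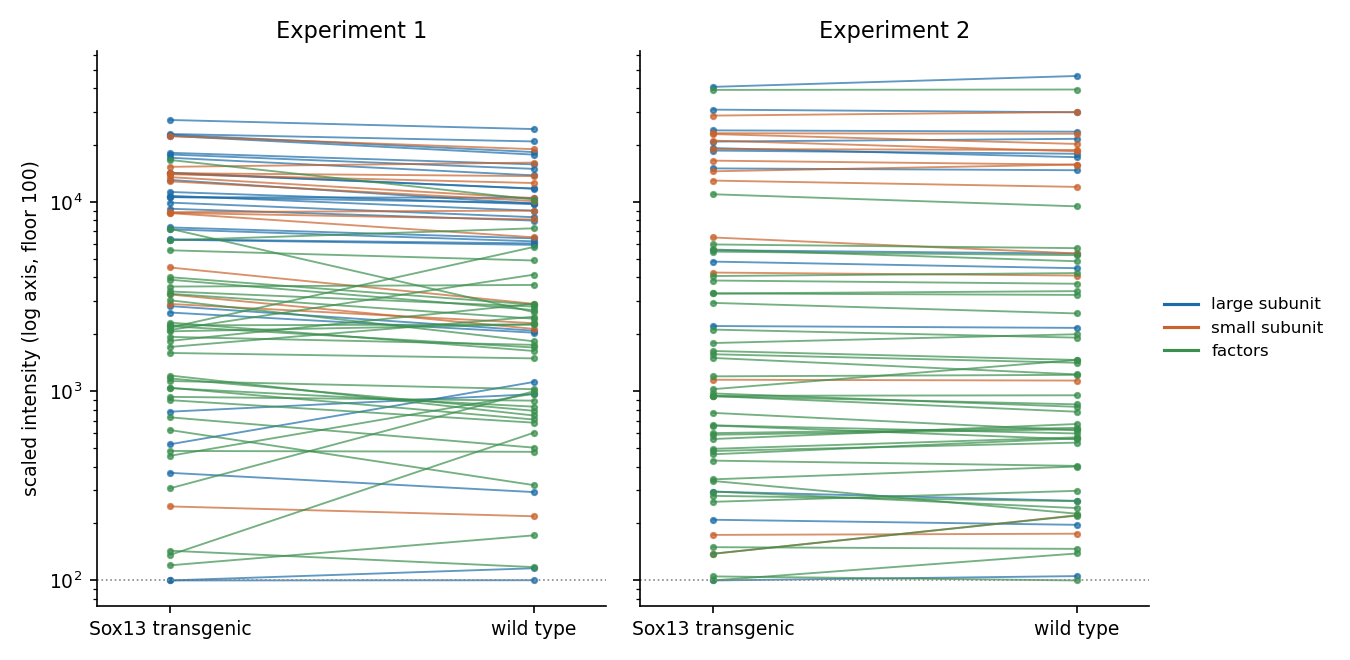
Each line joins the scaled intensity (log axis, floor 100) of 1 member above the floor in Sox13 transgenic cells (left) and wild-type cells (right), for experiment 1 and experiment 2. Most ribosomal protein lines are bright and nearly flat, and the steep lines of experiment 1 are those of factors, such as Eif5 with 136.3 in transgenic and 603.0 in wild-type cells.

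The factors differed more among themselves than the ribosomal proteins did, in a comparison not matched for signal. Spreads of both within ranges of signal are given above, and the part of brightness in the difference was not tested. In experiment 1 the log2 ratios of 35 factor genes had a median of 0.18 (23 higher) and an interquartile range of 0.68 log2 units, and in experiment 2 those of 40 had a median of 0.06 (23 higher) and a range of -0.67 to 0.57. Over all members in experiment 1, 1 gene was 2-fold or more higher (Eif5a), where 5.25% of all genes were. Of the 75 members, 5 were 2-fold or more lower (Eif5, Eif3a, Eif4a2, Eif2a and Rpl5), where 11.7% of all genes were. In experiment 2, 0 of 66 members were 2-fold higher and 0 were 2-fold lower, where 0.855% and 0.446% of all genes were. Both counts of experiment 1, taken over all members, were below the share over all genes. Of the 35 factor genes alone, 4 (11.4%) were 2-fold or more lower, near the share over all genes, and 1 (2.86%) was higher.

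Eif5, which makes eIF2 hydrolyse its GTP once the start codon is found, had the lowest mean ratio of all members. It stood at 136.3 in transgenic and 603.0 in wild-type cells in experiment 1, and at 1798 in transgenic and 2001 in wild-type cells in experiment 2. Its mean log2 ratio was -1.15 ± 0.44 (moderated SE, n = 2), with an unadjusted limma p of 0.0203 and an adjusted p of 0.723. Eif5 was lower in both experiments, but nearly all of the mean came from experiment 1, where 1 probe set measured it. Eif5a, an elongation factor that carries the amino acid hypusine, stood at 7229 in transgenic and 2621 in wild-type cells on 1 probe set of Mu11K B. Its other Mu11K probe set and its U74A probe set were at the floor in both genotypes, so the 2.76-fold difference has no second measurement. Eif6, which keeps the large subunit from joining too early, had log2 ratios of 0.53 and 0.15.

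eIF2 brings the initiator tRNA to the small subunit, and the genes of eIF2 and its partners pointed in different directions. Eif2s2, its beta subunit, had a log2 ratio of 0.14 in experiment 1. Eif2s3x, the X-linked gamma subunit, stood at 1714 in transgenic and 2475 in wild-type cells in experiment 1, and at 5614 in transgenic and 4866 in wild-type cells in experiment 2, opposite in direction. The probe set annotated to Eif2s3y, the Y-linked gamma subunit, stood at 559.0 in transgenic and 671.2 in wild-type cells in experiment 2. It carries the family code and the mice are labelled female, so what it measured was not tested. Eif2a, a separate factor that can deliver initiator tRNA without GTP, stood at 455.8 in transgenic and 970.6 in wild-type cells in experiment 1, and at 464.2 in transgenic and 564.0 in wild-type cells in experiment 2. Eif2a was lower in both, with a mean of -0.69 ± 0.36 (moderated SE, n = 2) and a limma adjusted p of 0.796. Eif2d, another tRNA-delivering factor, had 0.97 in experiment 1 and -0.10 in experiment 2.

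eIF2B recharges eIF2 with GTP and is the step that eIF2 alpha phosphorylation blocks. All 4 of its subunits with probe sets were brighter in transgenic cells in both experiments, by amounts that did not pass the test. Eif2b5, the catalytic subunit, stood at 1211 in transgenic and 744.5 in wild-type cells in experiment 1, and at 658.8 in transgenic and 557.4 in wild-type cells in experiment 2. Eif2b2 stood at 2208 in transgenic and 1703 in wild-type cells in experiment 1, and at 941.3 in transgenic and 852.7 in wild-type cells in experiment 2. Eif2b4 had log2 ratios of 0.14 and 0.29, and Eif2b1 had 0.01 and 0.27. The largest mean of the 4 was that of Eif2b5, 0.47 ± 0.34 (moderated SE, n = 2), with a limma adjusted p of 0.872. All 4 means also stayed above 0 with quantile, median and loess scaling. Of the 4 kinases that phosphorylate eIF2 alpha, only Eif2ak2 had a probe set analysed in experiment 1, where it was at the floor in both genotypes. In experiment 2, 3 of the 4 were above the floor, and Eif2ak4, the kinase of amino acid starvation, was at the floor. Eif2ak1, the haem-regulated kinase, stood at 973.7 in transgenic and 827.3 in wild-type cells, and Eif2ak3, the kinase of the unfolded protein response, at 295.2 in transgenic and 241.2 in wild-type cells. Eif2ak2, the kinase activated by double-stranded RNA, stood at 105.0 in transgenic cells and at the floor in wild-type cells, which is a ratio too near the floor to read.

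eIF3 is the scaffold of many subunits that binds the small subunit. Of its 9 subunits above the floor in experiment 1, 5 were higher, with a median of 0.07, and of 10 in experiment 2, 7 were higher, with a median of 0.06. Eif3a, the largest core subunit, stood at 306.8 in transgenic and 998.8 in wild-type cells in experiment 1, and at 660.4 in transgenic and 598.2 in wild-type cells in experiment 2. The 3.26-fold lower value of experiment 1 was therefore not seen in experiment 2. Eif3c, another core subunit, had log2 ratios of -0.65 and -0.05, and Eif3b, also a core subunit, stood at 3025 in transgenic and 1837 in wild-type cells in experiment 1, and at 2118 in transgenic and 1920 in wild-type cells in experiment 2. The core subunits thus pointed in different directions within experiment 1, although they work in 1 complex. Eif3k, Eif3m and Eif3d were higher in both experiments, with log2 ratios between 0.06 and 0.53. Eif3e had 0.56 and -0.20, and Eif3j1, a loosely bound subunit measured in experiment 2, had -0.51.

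The eIF4 group binds the cap and unwinds the 5′ end of the message. Without its repressors, 2 of 5 genes above the floor were higher in experiment 1 and 1 of 6 in experiment 2. Of the 5 measured in both, 0 were higher in both and 2 were lower in both. The 2 helicase genes of the group are close paralogs and differed in experiment 1. There, both probe sets of Eif4a1 carry the family code and Eif4a2 has 1 probe set. Whether the Eif4a1 sets also measured its paralog was not tested. Eif4a2 stood at 2171 in transgenic and 5786 in wild-type cells in experiment 1, and at 3287 in transgenic and 3382 in wild-type cells in experiment 2. Eif4a1 stood at 5559 in transgenic and 4911 in wild-type cells in experiment 1, and at 600.7 in transgenic and 640.2 in wild-type cells in experiment 2. In experiment 2 their log2 ratios were -0.04 for Eif4a2 and -0.09 for Eif4a1. Eif4g2, a relative of the eIF4G scaffold that lacks the cap-binding partner's site, stood at 2108 in transgenic and 4131 in wild-type cells in experiment 1, and at 429.8 in transgenic and 403.2 in wild-type cells in experiment 2. Eif4b, the helicase cofactor, had log2 ratios of -0.02 and -0.03. Eif4e2 had 0.40 in experiment 1 and -0.19 in experiment 2, and Eif4g3 had -0.22 in experiment 2. Of the repressors that hold eIF4E away from the cap complex until mTOR phosphorylates them, Eif4ebp1 stood at 1169 in transgenic and 788.6 in wild-type cells in experiment 1 and was at the floor in experiment 2. Eif4ebp2 had log2 ratios of 0.32 and -0.15.

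Among elongation factors, Eef2, which moves the ribosome by 1 codon, was higher in both experiments. Its value in experiment 1 came from 1 family-coded probe set, and its other Mu11K probe set was at the floor in both genotypes. Eef2 stood at 16693 in transgenic and 10314 in wild-type cells in experiment 1, and at 10994 in transgenic and 9491 in wild-type cells in experiment 2. Its mean was 0.45 ± 0.34 (moderated SE, n = 2), with a limma adjusted p of 0.872. Eef1a1, the aminoacyl-tRNA carrier and one of the brightest members, stood at 39153 in transgenic and 39335 in wild-type cells on U74A. Its 4 Mu11K probe sets, all family-coded, had log2 ratios of -0.40 to -0.13, and its mean over both experiments was above 0 with median scaling (0.10). Both genes carry pyrimidine runs near their starts, shown above, and their mean ratios as reported lay on opposite sides of 0. The exchange factor subunits Eef1d and Eef1g had log2 ratios of 0.48 and 0.50 in experiment 1, and Eef1d had 0.16 in experiment 2. Eef1b2, another subunit, stood at 3275 in transgenic and 2419 in wild-type cells in experiment 1, and at 138.4 in transgenic and 220.1 in wild-type cells in experiment 2, opposite in direction and close to the floor in the second. Eef1a2, the muscle and neuron paralog of Eef1a1, was at the floor in transgenic cells and at 138.8 in wild-type cells in experiment 2. Eef2k, the kinase that inactivates eEF2, stood at 143.6 in transgenic and 117.6 in wild-type cells in experiment 1.

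**Figure D4:**
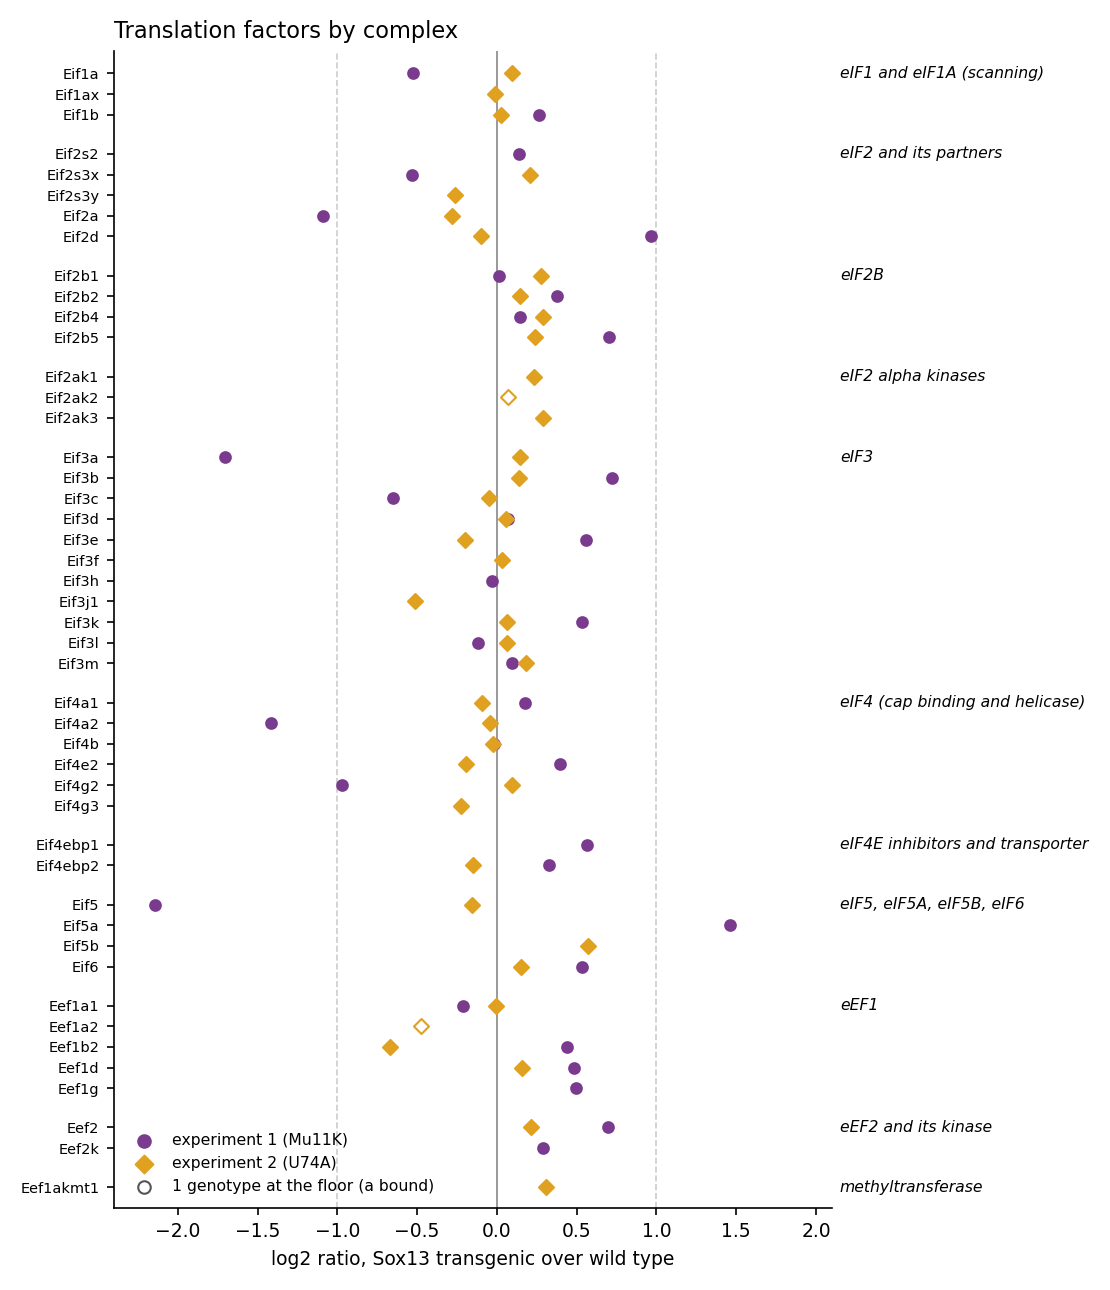
The log2 ratio of Sox13 transgenic over wild type is plotted for each factor gene, grouped by complex, with experiment 1 as circles and experiment 2 as diamonds. Open symbols have 1 genotype at the floor. The eIF2B symbols all lie above 0, and the 4 factors that were 2-fold lower in experiment 1 (Eif5, Eif3a, Eif4a2 and Eif2a) have diamonds between -0.28 and 0.14.

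**Figure D5:**
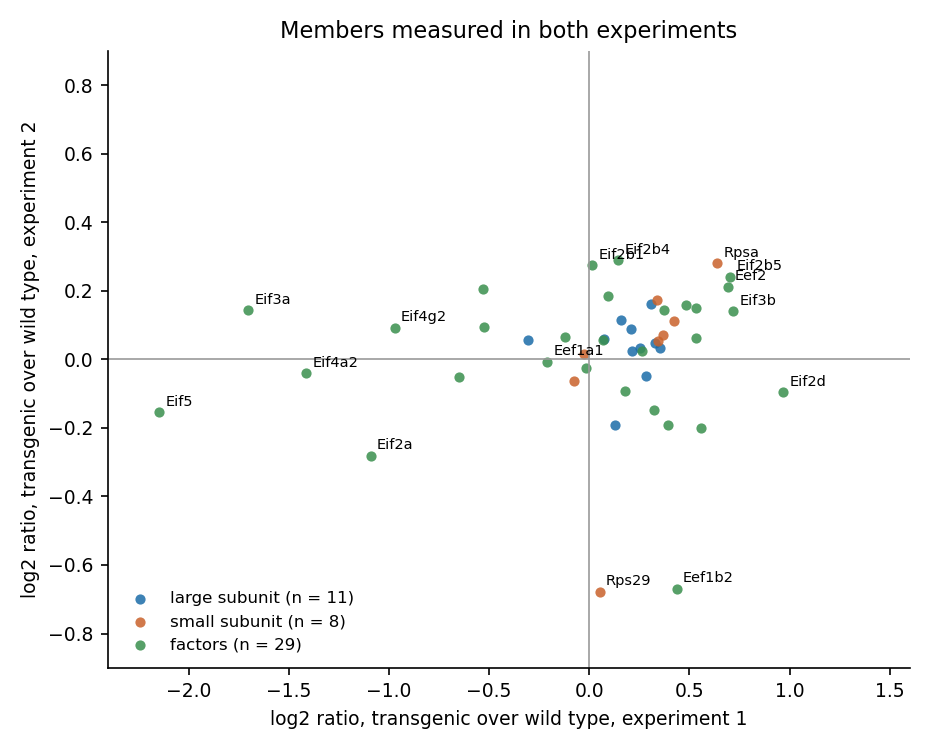
The log2 ratio of experiment 1 (x axis) is plotted against that of experiment 2 (y axis) for the 48 members above the floor in both, coloured by class. Of these, 25 lie at the upper right (higher in transgenic cells in both) and 7 at the lower left, and the values run from -2.15 to 0.97 in experiment 1 and from -0.68 to 0.29 in experiment 2.

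Genes of the same pathway outside the name rule were described from lists, none of whose genes passed the test. Over all genes, 45.6% were higher in experiment 1 and 45.4% in experiment 2, with medians of -0.07 and -0.03. The lists were not matched to all genes for signal. Of 11 other ribosome-associated genes, 4 were higher in experiment 1 and 7 of 11 in experiment 2, with medians of -0.27 and 0.04. The lowest of these was Hbs1l, the GTPase that rescues stalled ribosomes, named after its values were seen. Hbs1l stood at 112.4 in transgenic and 420.8 in wild-type cells in experiment 1, and at 1422 in transgenic and 1709 in wild-type cells in experiment 2. Serbp1, a ribosome-bound mRNA-binding protein also named after its values were seen, had log2 ratios of -0.81 and -0.80 at intensities under 300. Mitochondrial ribosome genes were higher in 22 of 32 in experiment 1 and in 33 of 61 in experiment 2, with medians of 0.15 and 0.03. Ribosome biogenesis and RNA polymerase I genes were higher in 22 of 36 and 25 of 47, with medians of 0.11 and 0.01, aminoacyl-tRNA synthetases in 6 of 15 and 14 of 21, with medians of -0.05 and 0.07, and genes that signal to translation in 6 of 13 and 6 of 18, with medians of -0.09 in both.

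The sorted cells carried the markers of their label. All 9 double-positive thymocyte markers on the arrays were above the floor, with summed levels of 59294 in transgenic and 64193 in wild-type cells in experiment 1, and of 72925 in transgenic and 74565 in wild-type cells in experiment 2. Within these sums, Rag2 stood at 459.8 in transgenic and 1871 in wild-type cells in experiment 1, and at 2119 in transgenic and 2008 in wild-type cells in experiment 2. Ptcra stood at 952.9 in transgenic and 312.3 in wild-type cells in experiment 1, and at 2247 in transgenic and 1503 in wild-type cells in experiment 2. Neither passed the test, and they were named after their values were seen. Erythroid markers summed to 1748 in transgenic and 453 in wild-type cells in experiment 1, and to 2034 in transgenic and 447 in wild-type cells in experiment 2. Of 5 markers, 3 were above the floor in either genotype, and 2 of these (the globins) passed the test as higher. The third, Gata1, was at the floor in transgenic cells in both experiments, against 143.2 and 104.6 in wild-type cells. Alas2 and Epor were at the floor. B cell markers summed to 8402 in transgenic and 6512 in wild-type cells in experiment 1, and to 2398 in transgenic and 1996 in wild-type cells in experiment 2, with 5 of 6 above the floor in either and Cd22 at it. Myeloid markers summed to 2860 in transgenic and 3222 in wild-type cells in experiment 1, and to 780 in transgenic and 665 in wild-type cells in experiment 2, with 6 of 7 above the floor in either. Of the NK cell markers, Gzma alone had a probe set analysed in experiment 1. In experiment 2 it alone was above the floor, with Klrd1, Ncr1 and Prf1 at it. Gzma stood at 8604 in transgenic and 1535 in wild-type cells in experiment 1, and at 1262 in transgenic and 605.2 in wild-type cells in experiment 2. Gzma did not pass the test. Stromal markers were at or near the floor. The ratio of 3′ to 5′ actin signal, a sign of RNA quality, was 1.08 in transgenic and 1.32 in wild-type cells on Mu11K B, and 1.36 in transgenic and 1.58 in wild-type cells on U74A. The same ratio for Gapdh was 1.18 in transgenic and 0.87 in wild-type cells on Mu11K B, the other way round, and 0.77 in transgenic and 0.79 in wild-type cells on U74A. The part of these differences in the ratios of the ribosomal and factor genes was not tested.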

How the data were processed

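The authors measured total RNA on Affymetrix arrays and deposited 1 intensity per probe set, made with MAS5 per the submitters' processing notes. The labels also name an earlier version of that software, and which version made which array is not given in the sources used here. Between 17.3% and 29.2% of the deposited values were negative on the Mu11K arrays and 0% on the U74A arrays. The 2 experiments may therefore not carry the same measure. Values of the wild-type Mu11K arrays are all whole numbers, against 10.3% (A) and 10.6% (B) of those of the transgenic Mu11K arrays. On U74A the shares were 9.70% in transgenic and 9.65% in wild-type cells. In experiment 1 any difference in processing behind this coincides with genotype, and the 2 cannot be told apart in its ratios. The target the authors scaled to is not given. Here, arrays were set to a common 2% trimmed mean (500) and floored at 100, probe sets at the floor on both arrays of a pair were left out, and log2 ratios within an array type were averaged per gene. On the 6 arrays, 46.9% to 57.4% of probe sets were above the floor, and 1 array per genotype and type limits the precision.

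Mu11K A and B together count as experiment 1 and U74A as experiment 2. The ratios were tested against 0 with limma 3.58.1 in R 4.3.3 (lmFit and eBayes, two-sided, Benjamini-Hochberg over 3237 genes, threshold 0.05). With 2 ratios per gene, most of the degrees of freedom (12.1) come from the prior shared over genes, and an exact permutation test could not go below 0.5. The p-values set a gene's mean over these 2 pairs of pools against a moderated variance. That variance comes mostly from all genes and only slightly from the gene's own 2 ratios. The fit was tested on simulated data. Gene names come from the platform annotation, updated through RefSeq; probe sets with several symbols name no member. Protein features were not analysed here.

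The members, lists and rules were chosen with earlier results of these data known. Named genes were drawn from the 5 brightest of each class and experiment, the 5 with the largest mean ratio in each direction per class, members that differed by 2-fold or had an unadjusted p under 0.05, and the eIF2, eIF2B, eIF3, eIF4 and elongation factor subunits with their regulators and the stalk genes. Not every gene that meets these rules is described. Alternatives were other floors, scalings, filters, probe set choices, limma priors and a fit without the pairing.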

Additional observations from a re-analysis of the deposited data

How the results depend on the processing

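No alternative run brought any member past the test. The count was 0 with every floor, scaling, filter, probe set choice and limma prior tried. It was also 0 in the fit with no replicate block (unpaired genotypes, where the main fit pairs the arrays of an experiment). Few genes of any kind passed, at most 26 of 3289 with median scaling. With a floor of 50, no filter, plain probe sets or no replicate block, 0 of all genes passed. These counts therefore cannot set the members apart from other genes. Median scaling moved the median of all genes in experiment 1 to 0.27, beside -0.07, and the large subunit, small subunit and factor medians to 0.59, 0.68 and 0.57, with 4 members 2-fold higher, 2 lower and 2 lower in both experiments. Quantile normalization gave 2 members 2-fold higher and a large subunit median of 0.084, and loess 2 and 0.055. Without the filter on low values, 0 members were 2-fold higher and the factor median was 0.057. Plain probe sets alone left 3 large subunit genes (median -0.21), 1 small subunit gene (0.47) and 6 factors (-0.11), because few members have such sets. The -0.21 and the 0.47 are the values of Rpl32-ps and Rps27l, each with 1 genotype under the floor. With plain probe sets, 0 members were 2-fold higher, 0 lower, 1 higher in both and 0 lower in both experiments.

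Leaving out 1 experiment at a time gave medians over the tested members of 0.05 to 0.21 for the large subunit, 0.06 to 0.34 for the small subunit and 0.06 to 0.14 for factors. Mean log2 ratios that turned positive with median scaling were those of Eef1a1 (0.10), Eef1b2 (0.078), Eif2s3x (0.032), Eif3l (0.17), Eif4b (0.17), Rpl41 (0.16), Rps24 (0.19) and Rps4x (0.19). Eef1b2 was also at 0.15 with a floor of 200 and at 0.051 with no filter, Rps4x at 0.045 with a floor of 50, and Rpl7 at 0.076 with a floor of 200, with sets above the floor on both arrays, or with its brightest set. Eif4a1 turned to -0.017 with quantile normalization and -0.019 with loess, and Rpl10a to -0.0079 with quantile normalization and -0.019 with loess. Where no construction of the setting is named, the cause was not tested. Family-coded probe sets and 1 array per genotype and type limit statements on single ribosomal proteins.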
